A study of Mus musculus with 35 samples.

Results

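Prm1, Prm2, Prm3, Tnp1 and Tnp2 are the mouse protamine and transition protein genes. Most of them encode small basic proteins that take the place of histones in the chromatin of developing sperm. These 5 genes were taken by symbol from the 55356 genes with a row of counts. Each ENSEMBL gene was looked up under the Iso-seq locus that the deposited map pairs with it. Prm2 and Tnp2 were counted under an Iso-seq locus, and Prm1, Prm3 and Tnp1 under the ENSEMBL gene.

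RNA-seq was run on 29 libraries from C57BL/6J adults, without any treatment or transgene. Brain, cerebellum, heart and colon were sampled in females and males, and the gonads gave an ovary group and a testis group, so that tissue and sex made 10 groups. Each group had 3 libraries, except male heart with 2. Total RNA had been depleted of rRNA and made into strand-specific libraries. The number of animals behind each library is not stated in the sources used here, so p-values measure the spread between these libraries, which may in part be technical.

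In spermatids, the haploid cells that follow meiosis, histones are removed from DNA and replaced first by transition proteins and then by protamines, which pack the sperm nucleus tightly. Protamine and transition protein mRNAs are made in round spermatids, are held back from translation by RNA-binding proteins, and are translated days later in elongating spermatids. The whole testis also holds spermatogonia, spermatocytes, Sertoli cells and Leydig cells. In such bulk samples, fewer cells of a type and less RNA per cell cannot be told apart.

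Total counts ran from 11742417 to 36194255 per library, and the testis libraries held between 28459258 and 30925443. The tissue labels were checked with marker genes, in FPKM (CPM, the count scaled to the library total in units of 1e+06, per kilobase of exon). Mean FPKM of Dmrt1, a regulator of spermatogonia, was 7.2 in testis, and its count was 0 in the 26 other libraries. Among the other spermatogonia markers, Zbtb16 had 2.56 FPKM there against 10.5 FPKM in heart and was called lower in testis (log2 fold change -1.11, adjusted p = 0.00387 by edgeR). Sall4 was called higher in testis (log2 fold change 3.20, SE 0.44, adjusted p = 6.76e-07), although its mean was 0.44 FPKM there against 0.55 FPKM in ovary and 0.47 FPKM in heart. Myh6 of the heart muscle, Muc2 of goblet cells, Pcp2 of Purkinje cells and Foxl2 of granulosa cells each had their highest tissue mean in heart (3875 FPKM), colon (198 FPKM), cerebellum (1405 FPKM) and ovary (44.8 FPKM), respectively. No pair of libraries within a group held identical counts.

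Prm1, Prm2, Prm3 and Tnp2 lie side by side on chromosome 16 and are all read from the minus strand of GRCm38, which was the build of the annotation. Prm1 spans chr16:10796326-10805839, with one transcript of 2 exons that begins at base 10796886 and another that begins far upstream. Prm2 spans chr16:10791381-10792102 in 2 exons. Prm3 is a single exon at chr16:10790505-10790914, 466 bases from Prm2. Tnp2 spans chr16:10787936-10788655 in 2 exons, 1849 bases from Prm3. Tnp1 stands apart at chr1:73015074-73015909, also on the minus strand, in 2 exons. The 4 clustered genes, measured with the shorter span of Prm1, fit within 8951 bases. The sequences before their start sites are shown with that of Tnp1 because all 5 genes were high in the same 3 libraries.

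The 120 bases before each RefSeq start site (GRCm38.p6) are printed 5′ to 3′ on the minus strand, and capitals mark a match to TATAA, a match to TATATA or, with at most 1 difference, a match to TGACGTCA, the cyclic AMP response element. The windows are chr16:10796824-10796943 for Prm1, chr16:10792106-10792225 for Prm2, chr16:10790915-10791034 for Prm3, chr1:73015900-73016019 for Tnp1 and chr16:10788656-10788775 for Tnp2.
Prm1: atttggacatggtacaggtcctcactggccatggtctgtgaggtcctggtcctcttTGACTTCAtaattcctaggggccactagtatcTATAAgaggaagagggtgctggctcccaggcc
Prm2: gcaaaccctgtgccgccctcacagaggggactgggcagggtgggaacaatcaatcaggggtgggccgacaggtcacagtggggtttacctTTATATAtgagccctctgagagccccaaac
Prm3: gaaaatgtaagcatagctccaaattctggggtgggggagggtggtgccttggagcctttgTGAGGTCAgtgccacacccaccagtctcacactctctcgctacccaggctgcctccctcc
Tnp1: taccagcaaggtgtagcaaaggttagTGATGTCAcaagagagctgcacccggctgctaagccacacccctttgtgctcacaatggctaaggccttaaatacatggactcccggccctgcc
Tnp2: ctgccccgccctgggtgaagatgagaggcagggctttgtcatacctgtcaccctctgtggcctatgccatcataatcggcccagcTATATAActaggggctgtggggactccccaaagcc

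TATAA, the core of a TATA box, was present on either strand in the windows of Prm1, Prm2 and Tnp2, which made 3 of 5 genes against 11.8% of the 32851 promoter windows in the RefSeq table. It began 32 bases before the start in Prm1 and 33 bases before it in Tnp2, and the Prm2 match was read on the other strand. In Prm2 and Tnp2 it overlapped TATATA, which was found in 2.51% of all windows. No member held an exact TGACGTCA, which 1.24% of windows held. With at most 1 difference, the element matched in Prm1, Prm3 and Tnp1, where 7.24% of all windows matched, and the Tnp1 match lay 94 to 87 bases before the start. A match is only a description of these letters. The Iso-seq transcripts of Prm2 and Tnp2 began 3 bases inside and exactly at the RefSeq start, respectively. The ENSEMBL transcript of Prm1 begins 63 bases upstream of the RefSeq start, so the last 63 bases of its window lie inside the annotated first exon, and for Tnp1 this holds for the last 10 bases.

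**Figure D1:**
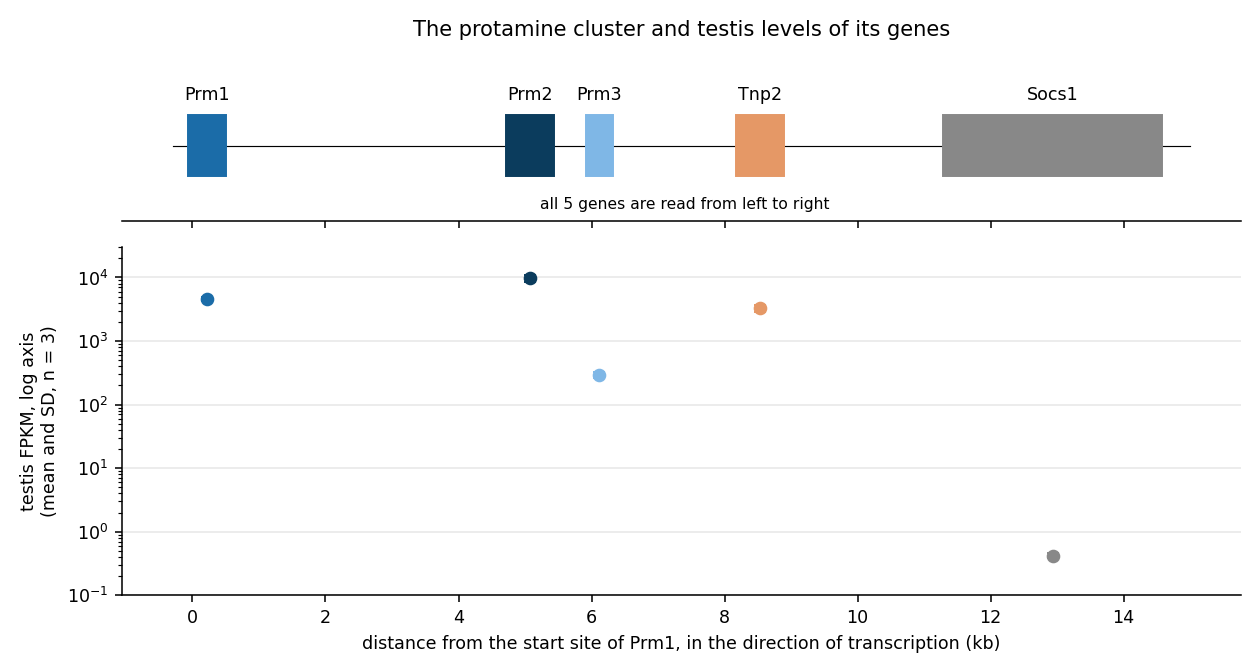
Genes of the chromosome 16 cluster as boxes, by distance in kilobases from the start site of Prm1 (above), and the mean testis FPKM of each on a log axis with the SD of 3 libraries (below). Prm1, Prm2, Prm3 and Tnp2 lie between 295 and 9646 FPKM, and the next gene, Socs1, lies at 0.42 FPKM.

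The genes on both sides of the cluster were low in testis. Socs1, a suppressor of cytokine signalling and the next gene after Tnp2, lies 2399 bases away on the same strand and averaged 0.42 FPKM in testis libraries (SD 0.036, n = 3) and 0.43 FPKM over the 26 other libraries. On the other side, the pseudogene Gm10343 and the lncRNA Gm46563 overlap the long intron of the other Prm1 transcript, on the opposite strand, and share no exon base with Prm1. They had 1.76 and 1.61 FPKM in testis, respectively, from at most 27 counts in a library. Over the 26 other libraries their means were lower, at 0.300 FPKM for Gm10343 (highest 1.40 FPKM) and 0.139 FPKM for Gm46563 (highest 0.630 FPKM).

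Protamine 1 and protamine 2 are the main packaging proteins of mouse sperm. Prm1 had 4298, 5074 and 4460 FPKM in the testis libraries 1 to 3, a mean of 4611 FPKM (SD 409, n = 3), from 69851 to 89600 counts. In the 26 other libraries it never exceeded 7.01 FPKM, which was reached in a female colon library, and the lowest testis library was 613-fold above that value. The groups did not overlap.

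Prm2, whose product is made as a longer precursor, had 8461, 11016 and 9460 FPKM in the testis libraries 1 to 3, a mean of 9646 FPKM (SD 1288, n = 3), from 148567 to 210199 counts. It was the protein-coding gene with the highest mean FPKM in testis. Among all genes only Rn7sk, the 7SK small nuclear RNA that holds back transcription elongation, stood above it, at 128917 FPKM (SD 18944, n = 3). The highest Prm2 value elsewhere was 12.0 FPKM, again in female colon, and the lowest testis library was 705-fold above it.

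Prm3 is an intronless gene named for its position between Prm2 and Tnp2, and its product is not known as a main DNA-packing protamine. It had 274, 337 and 273 FPKM in the testis libraries 1 to 3, a mean of 295 FPKM (SD 36.5, n = 3). This put it at rank 150 among protein-coding genes in testis, where Prm2 was first, Prm1 ranked 3, Tnp1 ranked 4 and Tnp2 ranked 5, an order that rests on the exon lengths used. Its reads elsewhere were 3 in all: 2 counts in a female colon library and 1 in a male brain library.

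Transition protein 1 and transition protein 2 occupy spermatid chromatin between histones and protamines. Tnp1 had 4128, 4167 and 3860 FPKM in the testis libraries 1 to 3, a mean of 4052 FPKM (SD 167, n = 3). Tnp2 had 3054, 3797 and 3054 FPKM, a mean of 3302 FPKM (SD 429, n = 3). Neither overlapped with the other groups, where the highest values were 3.42 FPKM for Tnp1 and 5.58 FPKM for Tnp2, both in female colon.

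**Figure D2:**
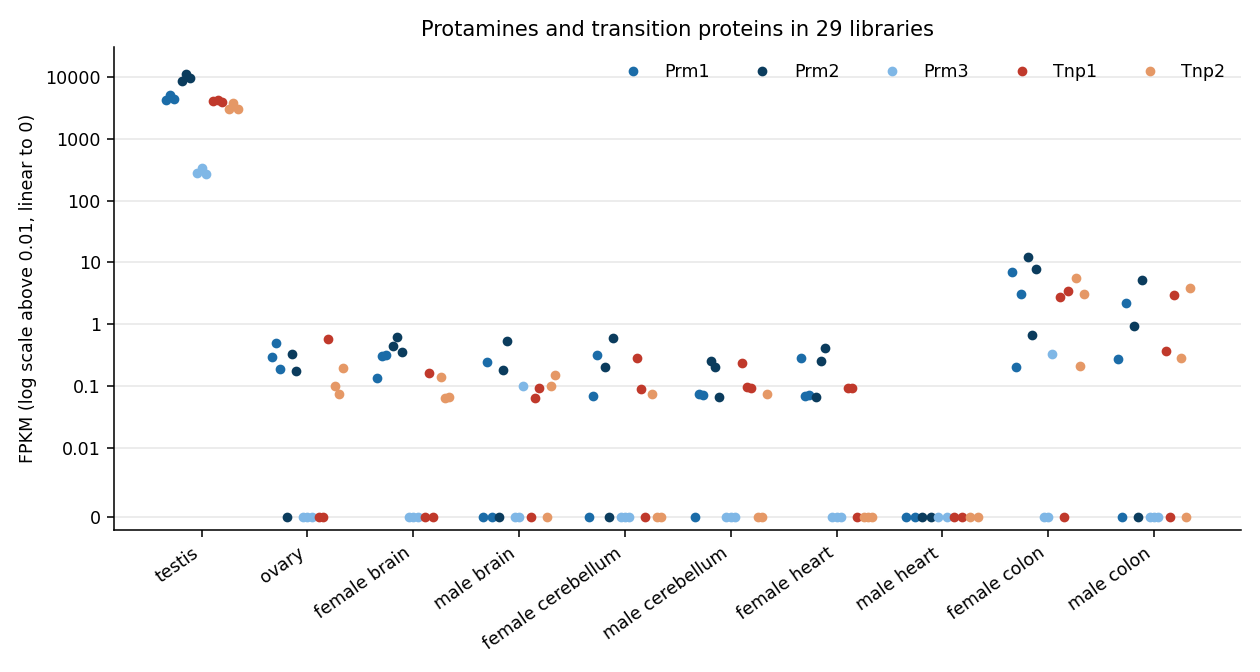
FPKM of the 5 genes in every library, by group, on an axis that is logarithmic above 0.01 and linear below it, with one point per library and 3 libraries per group (2 for male heart). Testis points lie at 273 FPKM or higher for every gene, and all other points lie at 12.0 FPKM or lower.

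The 3 testis libraries carried the genes in similar proportions. Replicate 2 was the highest of the testis libraries for each of the 5 genes. The coefficient of variation was 8.88% for Prm1, 13.4% for Prm2, 12.4% for Prm3, 4.13% for Tnp1 and 13.0% for Tnp2. Among the 771 genes at 100 FPKM or more in testis, the median coefficient was 6.15% (interquartile range 3.69% to 9.69%), and replicate 2 was the highest for 39.8% of them. The 5 genes together took 1.13%, 1.37% and 1.19% of all counts in the testis libraries 1 to 3, a mean of 1.23% (SD 0.129, n = 3). Prm2 made up 48.3% of these member counts (SD 1.75), Prm1 21.4% (SD 0.347), Tnp2 14.7% (SD 0.533), Tnp1 14.5% (SD 1.40) and Prm3 0.982% (SD 0.0341).

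**Figure D3:**
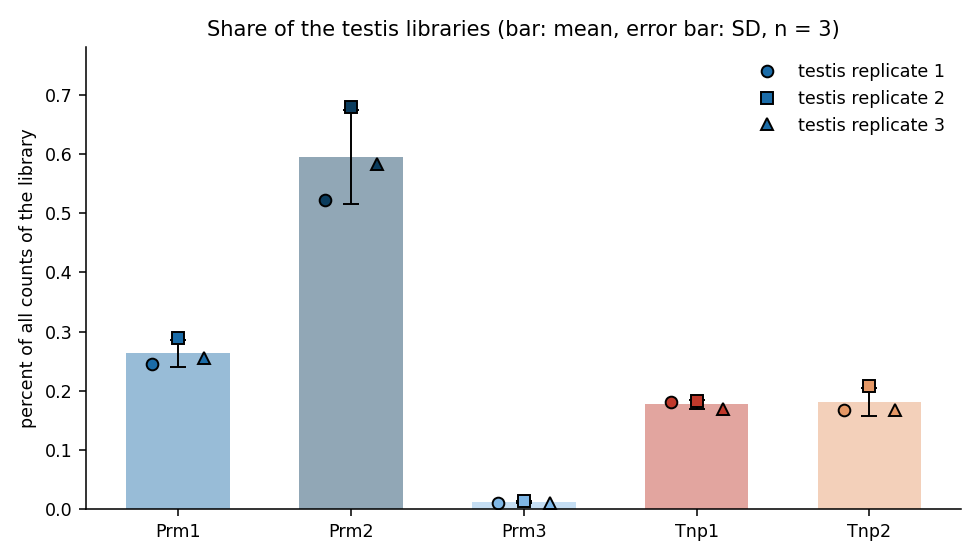
Percent of all counts of each testis library held by each gene, with bars for the mean, error bars for the SD and one symbol per library (n = 3). Prm2 holds a mean of 0.595% and Prm3 a mean of 0.0121%, and replicate 2 is the highest for each gene.

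Levels of different genes were compared per kilobase, within each library. Prm2 was 2.08-fold as abundant as Prm1, with a log2 ratio of FPKM of 1.06 (SD 0.07, n = 3) and a range of 1.97-fold to 2.17-fold over the libraries. Tnp2 reached 0.714 of the Prm1 level (range 0.685 to 0.748), and Tnp1 reached 0.880 of it (range 0.821 to 0.960). Both transition proteins were thus below Prm1 in every testis library. The Tnp2 level was 0.811 of the Tnp1 level (range 0.740 to 0.911), whereas their counts were nearly equal, with a log2 ratio of 0.03 without length correction. Prm3 reached 0.0637 of the Prm1 level (range 0.0611 to 0.0664). The Prm1 length covers both of its transcripts, and with the longest transcript as the length the log2 ratio of Prm2 to Prm1 was 0.78.

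The count of Tnp1 has a limit of its own. The lncRNA 1700027A15Rik (chr1:72984844-73025507, plus strand) spans Tnp1 on the opposite strand and shares 40 exon bases with it. Its counts were 56100, 61374 and 57149 in the testis libraries 1 to 3, beside 51340, 56317 and 51885 for Tnp1, so that the ratio of the counts stayed between 1.09 and 1.10. Over the 26 other libraries the lncRNA had 102 counts and Tnp1 had 77. The libraries kept strand, but whether counting used the strand is not stated in the sources used here, and reads on the shared bases cannot be told apart without it.

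The contrast of testis with the average of the 9 remaining groups asked how far these genes are restricted to the whole testis. All 5 members were called higher in testis at an adjusted p under 0.05 by edgeR (quasi-likelihood, Benjamini-Hochberg adjusted), where 40.6% of the 29911 genes tested were called higher. The log2 fold change was 14.86 (SE 0.35, adjusted p = 3.7e-22) for Prm1 and 15.20 (SE 0.41, adjusted p = 5.61e-21) for Prm2. It was 14.15 (SE 0.25, adjusted p = 9.65e-15) for Prm3, 15.02 (SE 0.34, adjusted p = 1.95e-22) for Tnp1 and 15.43 (SE 0.37, adjusted p = 1.45e-20) for Tnp2. The median over all genes tested was 0.11. Male heart had 0 counts for each member, female heart had 0 for Tnp2, and Prm3 had reads outside testis in male brain and female colon alone. These fitted values therefore depend on the prior count and are not bounds. The SE of Prm3, the smallest of the 5, is no measure of precision, as only 3 reads lay outside testis.

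Pooled CPM values give the same contrast without a fit. Testis stood 11217.5-fold above the 26 other libraries for Prm1 (95% exact Poisson interval 9500 to 13343) and 12006.5-fold for Prm2 (10710 to 13506). The ratio was 13587-fold for Tnp1 (10871 to 17217) and 9852-fold for Tnp2 (8168 to 11999). For Prm3, with its 3 counts outside testis, the ratio was 23841-fold (8158 to 115607). The 6 colon libraries set much of these ratios. Against the 20 libraries outside testis and colon, testis stood 29767-fold higher for Prm1 (22174 to 40968), 39535-fold for Prm2 (31539 to 50263), 41848-fold for Tnp1 (27376 to 67604) and 60140-fold for Tnp2 (36463 to 107451). For Prm3, where female colon 3 held 2 of the 3 counts, it was 60079-fold from 1 count (10783 to 2373000). These intervals cover counting error only.

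An exact permutation test over every choice of 3 of the 29 libraries, two-sided on log2(FPKM + 0.1), gave p = 0.000274 for each gene, the smallest that the 3654 choices allow. On that scale the difference between testis and the other libraries was 13.94 for Prm1, 14.48 for Prm2, 11.40 for Prm3, 14.10 for Tnp1 and 13.86 for Tnp2. The pseudocount understates the change of genes near 0 elsewhere. The permutation treats single libraries as exchangeable, although they form 10 groups. Any gene for which the testis libraries give the largest difference of all choices reaches the same p, and the share of all genes that do was not computed.

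Testis was also compared with ovary, the other gonad. All 5 members were called higher in testis (37.8% of all genes tested were), with a log2 fold change of 14.39 (SE 0.86, adjusted p = 4.5e-13) for Prm1 and 16.24 (SE 1.10, adjusted p = 4.4e-12) for Prm2. Ovary libraries 1 to 3 held 3, 7 and 3 counts of Prm1 and 0, 5 and 3 counts of Prm2. Tnp1 had 0, 0 and 7 counts there, with a log2 fold change of 14.68 (SE 0.85, adjusted p = 2.08e-13). Over the alternative fits given at the end, this Tnp1 value ran from 14.12 to 18.54. Tnp2 had 1, 1 and 3 counts, with a log2 fold change of 15.15 (SE 0.93, adjusted p = 2.59e-12). Prm3 had no read in ovary, and against a floor of 3 counts over the group, testis was at least 2864-fold higher (adjusted p = 2.52e-10).

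Tau measures tissue specificity from 0 for even expression to 1 for a single tissue. Over the 6 tissues, both sexes together, tau was 0.999878 for Prm1, 0.999889 for Prm2, 0.999951 for Prm3, 0.999902 for Tnp1 and 0.999855 for Tnp2. Of the 24678 genes that reached 1 FPKM in the mean of some tissue, 12.5% had a tau over 0.99, and the median was 0.734. The members therefore shared this range with 2468 genes whose highest tissue was testis, themselves included.

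Across the 26 libraries other than testis, the 5 members had 622 counts in all, and 4 libraries had none. The summed level was at most 15.7 CPM, 719-fold below the lowest testis library at 11268 CPM. Colon carried most of these reads. The female colon libraries 1 to 3 held 47, 2 and 26 counts of Prm1, and the male colon libraries 1 to 3 held 3, 0 and 17. For Prm2 these libraries held 87, 7 and 72 counts and 11, 0 and 42 counts, respectively. Female colon 1, female colon 3 and male colon 3 thus stood apart, and they were chosen for that after the counts were seen. For Tnp1 the counts were 14, 0 and 22 in female colon and 3, 0 and 17 in male colon. For Tnp2 they were 36, 2 and 25 in female colon and 3, 0 and 28 in male colon. The 3 named libraries held 64.7% of the Prm1 counts outside testis, 68.4% of Prm2, 68.8% of Tnp1 and 81.7% of Tnp2, while they held 6.73% of all counts of the 26 libraries.

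The levels of Prm1 outside testis ran from female colon (mean 3.44 FPKM, SD 3.42) and male colon (0.837 FPKM, SD 1.22) through ovary (0.324 FPKM, SD 0.155), female brain (0.255 FPKM, SD 0.103), female heart (0.144 FPKM, SD 0.125), female cerebellum (0.131 FPKM, SD 0.170), male brain (0.0806 FPKM, SD 0.140) and male cerebellum (0.0485 FPKM, SD 0.0420) to male heart, with no read. Every pair of neighbours above male heart lay closer than the larger SD of the pair. For Prm2 the means were 6.86 FPKM in female colon, 2.02 FPKM in male colon and 0.474 FPKM in female brain, and between 0.166 and 0.267 FPKM in the other groups with any read. Male heart had 0 counts of every member in both libraries, which at a floor of 3 counts over the group leaves testis at least 35356.5-fold higher for Prm1 and at least 80043-fold higher for Prm2. For Tnp1 the means outside colon ran up to 0.190 FPKM (ovary), and for Tnp2 up to 0.123 FPKM (ovary), each from 7 counts or fewer in a group.

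Any difference among the 9 groups other than testis was tested by edgeR's quasi-likelihood test, where 80.4% of all genes tested were called. It called Prm1 (adjusted p = 0.000321), Prm2 (2.77e-05), Tnp1 (0.00468) and Tnp2 (0.000156), but not Prm3 (0.335). Prm3 had only 3 counts in the 26 libraries, too few for its lack of a call to be read as a result. Prm1, Prm2 and Tnp2 were called in each of the 29 fits that left out 1 library, with adjusted p of at most 0.0208, and Tnp1 in 28 of them, its call being lost without female colon 3 (adjusted p = 0.0616). A fit without the 3 colon libraries named above called 0 members (75.3% of all genes tested were called), with 0 at an unadjusted p under 0.05. As these libraries were left out for their member counts, that loss follows from the choice and is no test of the difference.

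**Figure D4:**
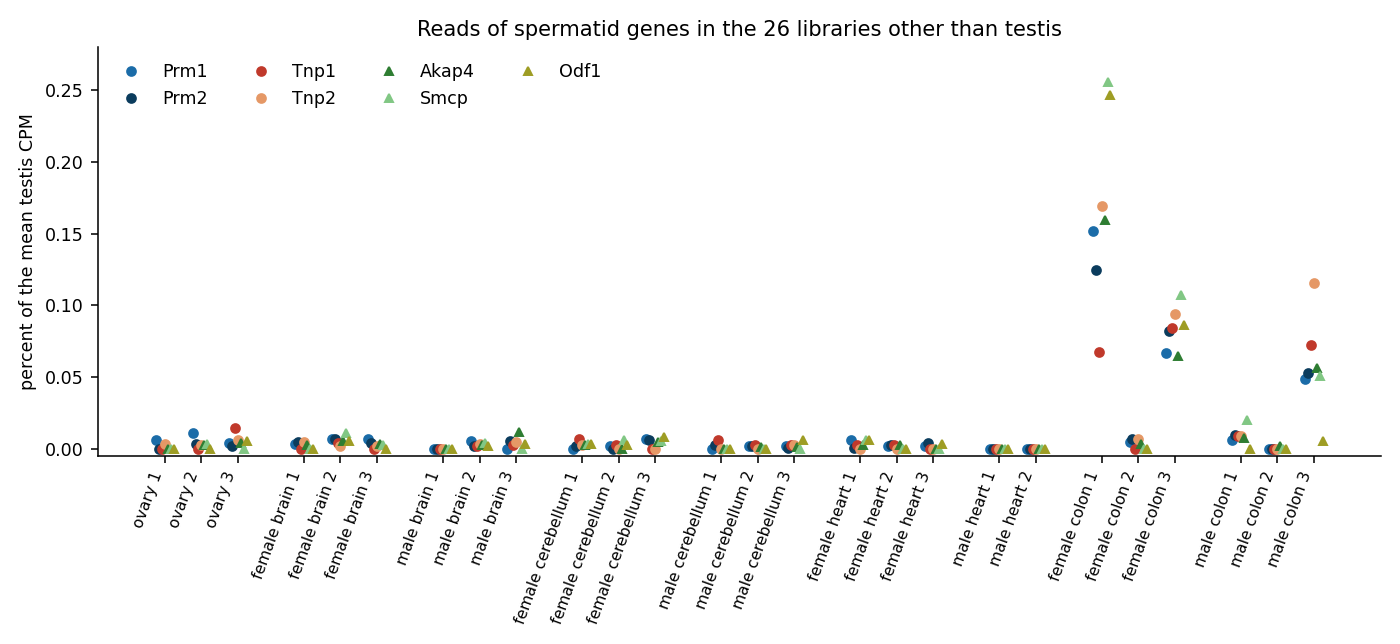
Level of 4 members and of 3 other spermatid genes (Akap4, Smcp, Odf1) in each of the 26 libraries other than testis, as a percent of the mean testis CPM of the gene. Female colon 1, female colon 3 and male colon 3 hold the highest points of each gene except Odf1, which has 1 count in male colon 3, up to 0.169% for a member (Tnp2) and 0.256% for Smcp, and the members lie at 0.0141% or lower in the 23 others.

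Spermatid genes differed in how far their reads outside testis lay in these 3 libraries. Of the 10 late spermatid structural genes, Odf1 had 78.9% of those reads there, Smcp 77.8% and Akap4 71.7%, but Tssk2 26.9%, Spem1 12.8% and Oaz3 6.08%, and the other 4 had at most 3.80%. Of the testis histones, H1fnt had 80.0% there, Hist1h2ba 31.3%, Hils1 20.5% and Hist1h1t 17.4%. Spem1, with 484.5 FPKM in testis, had 3, 1 and 3 counts in female colon, 0 in male colon and 5, 8 and 7 counts in male cerebellum. As a percent of testis, female colon 1 (0.0528%) and female colon 3 (0.0421%) lay near male cerebellum (0.0542% to 0.0700%). The genes with high shares are given by library, chosen after the values were seen. Prm1 stood at 0.152%, 0.00445% and 0.0670% of its mean testis CPM in the female colon libraries 1 to 3 and at 0.00603%, 0% and 0.0484% in the male colon libraries 1 to 3. Akap4, the main scaffold of the sperm fibrous sheath, stood at 0.159%, 0.00337% and 0.0644% in female colon and at 0.00761%, 0.00153% and 0.0561% in male colon, close to Prm1 in each library. Smcp, of the sperm mitochondrial capsule, stood at 0.256% in female colon 1, 0.107% in female colon 3 and 0.0507% in male colon 3. Odf1, of the outer dense fibres of the tail, stood at 0.247% in female colon 1 and 0.0863% in female colon 3, but at 0.00530% (1 count) in male colon 3, below its 0.00782% in female cerebellum 3. Of the late spermatid list, Smcp and Akap4 were higher in all 3 of these libraries than in any of the 23 others, as were H1fnt, Prm1, Prm2, Tnp1 and Tnp2. The whole list summed to between 0.237% and 0.405% of its testis level in the colon libraries and to between 0.460% and 0.828% in the 20 libraries of the other groups. Those sums were carried by Odf2 and by Gapdhs, which is counted in one locus with Tmem147: over the 26 libraries they had 31933 and 20757 counts, against at most 1224 for any of the other 8 genes. Acrv1, of the acrosome, had 0 counts in all 6 colon libraries, and its mean in testis was 90.6 FPKM.

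Genes of other testis cells gave mixed values there. Cyp17a1, a steroid-making enzyme of Leydig cells and of ovary, had 20, 3 and 9 counts in female colon and 2, 0 and 3 counts in male colon. Hsd3b6, another such enzyme, had 11, 0 and 8 counts and 13, 3 and 2 counts there. Insl3, a peptide hormone of Leydig cells, is counted in one locus with Jak3. That locus had 85 to 197 counts in each colon library and there carried the sum of the 3 Leydig cell markers, 0.253% to 0.611% of its testis level. In the 20 libraries of the other groups the sum was 0.0582% to 20.3%, the highest in ovary 3, where Cyp17a1 had 11216 of the 11602 counts. The 4 spermatocyte markers summed to between 2.26% and 3.99% in colon and to between 1.32% and 20.4% in those 20 libraries. In the 3 named colon libraries, Sycp3 of the synaptonemal complex had 225 counts of that sum, Spo11 11, Dmc1 5 and Sycp1 1, and Sycp3 also had 25.02 FPKM in heart. The 3 spermatogonia markers summed to between 18.1% and 85.8% in colon and to between 37.2% and 138.6% in the 20 libraries. Zbtb16 had a mean of 3.83 FPKM in colon, Sall4 0.0077 FPKM and Dmrt1 no read. The 3 Sertoli cell markers (Sox9, Rhox5, Wt1) summed to between 13.7% and 31.98% in colon and to between 21.4% and 431% in the 20 libraries. The colon libraries had totals of 11742417 to 18890658 counts, and of the 20 libraries of the other groups ovary 1 alone (18035978 counts) lay within that range. Of 247 other genes with a tau over 0.99, at least 100 FPKM in testis and at least 20 counts outside it, 15.8% had more than 50% of those counts in the 3 colon libraries. The part of these values in the member traces was not tested.

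The sexes were compared over brain, cerebellum, heart and colon, where the members had only such traces. By edgeR's quasi-likelihood test 0 of 5 members were called (0.104% of all genes tested were), and 0 had an unadjusted p under 0.05. For Prm3, the 3 counts outside testis were too few for this test or that of the interaction to decide. Prm1 had a log2 difference, male minus female, of -2.27 (SE 1.14, adjusted p = 0.54) and Prm2 one of -2.19 (SE 1.11, adjusted p = 0.545). DESeq2 also called 0 members (1.26% of all genes tested were called), with an adjusted p of 0.2 for Prm1 and 0.239 for Prm2, both with an unadjusted p under 0.05. The unadjusted p of both was also under 0.05 in edgeR without the filter on low counts (0.0327 and 0.0336) and without the 3 colon libraries (0.0425 and 0.0382). For Tnp1 the difference was -0.97 (SE 1.39), and without the 3 colon libraries it turned to 0.27, with no usable error. For Prm3 and Tnp2 edgeR gave no usable error. DESeq2 gave -0.16 for both (SE 0.856 for Prm3 and 0.969 for Tnp2). Without heart, chosen after the data were seen, Prm1 had -1.57 (SE 0.88, adjusted p = 0.841) and Tnp2 -0.41 (SE 1.65), and Prm3, with 3 counts in all, still had no usable error. No member had an interaction of sex with tissue (0 of 5 called by edgeR or by DESeq2, 0 with an unadjusted p under 0.05 in either, lowest adjusted p = 0.894 by edgeR), where 0.0167% of all genes tested were called by edgeR and 0.681% by DESeq2.

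The genes around the members in the replacement of histones were summarised from 4 lists, chosen with earlier results of these data known. In testis against the 9 remaining groups, where 40.6% of all genes tested were called higher and 26.7% lower, all 8 transcription regulators of haploid germ cells were called higher, with a median log2 fold change of 7.39 beside 0.11 over all genes tested. Gtf2a1l, a germ cell form of a general transcription factor, had 151 FPKM in testis (SD 4.72, n = 3). Fhl5, a coactivator of CREM, had 148 FPKM (SD 17.2), Crem itself, the factor known to act at cyclic AMP response elements in spermatids, 115 FPKM (SD 11.2), and Sox30 97.5 FPKM (SD 9.20). Crem was expressed in every tissue, with 3.79 FPKM in heart and up to 6.995 FPKM in cerebellum, and its log2 fold change of 4.75 (SE 0.11) was far below those of the members.

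All 6 genes for storing and translating protamine mRNA were called higher, with a median log2 fold change of 5.61. Ybx2 and Ybx3, Y-box proteins that bind stored mRNAs in spermatids, had 763 FPKM (SD 55.5, n = 3) and 752 FPKM (SD 59.0) in testis. Ybx2 had at most 6.55 FPKM in any other library, with a mean of 5.51 FPKM in heart, whereas Ybx3 reached 194 FPKM in another library. Ddx25, an RNA helicase of the germ line, had 227 FPKM (SD 3.21), and Papolb, a cytoplasmic poly(A) polymerase counted in one locus with Radil, had 62.6 FPKM (SD 4.70).

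Of 14 genes for histone removal and chromatin condensation, 12 were called higher, 1 was called lower and 1 was not called, with a median log2 fold change of 4.59. Such a call is against the average of the other groups and does not place testis above every tissue. Camk4, called higher, had 31.3 FPKM in testis against 41.8 FPKM in brain and 55.8 FPKM in cerebellum. Epc1, also called higher, had 9.87 FPKM against 13.6 FPKM in ovary and 13.0 FPKM in cerebellum. Cdyl had 117 FPKM in testis and up to 130 FPKM in another library. Hist1h2ba, the testis variant of H2B, had 5075 FPKM in testis (SD 761, n = 3), a range of 4202 to 5597 FPKM that overlapped that of Prm1. The testis linker histones Hist1h1t, H1fnt and Hils1 had 698 FPKM (SD 63.9), 471 FPKM (SD 9.65) and 413 FPKM (SD 26.4). Rnf8, a ubiquitin ligase of histones counted in one locus with Tbc1d22b, had 8.90 FPKM in testis and a log2 fold change of 0.06 (SE 0.14, adjusted p = 0.741). Pygo2, a reader of methylated histone H3, was lower in testis, at 3.78 FPKM (SD 0.365), by a log2 fold change of -0.33 (SE 0.12, adjusted p = 0.0179). That call was lost without testis replicate 2 (adjusted p = 0.0645), without testis replicate 3 (0.126) and with size factors in place of TMM (log2 fold change -0.20, adjusted p = 0.136), which move the median of all genes from 0.11 to 0.23.

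All 10 late spermatid structural genes were called higher, with a median log2 fold change of 12.66, the closest of the 4 lists to the members. Oaz3, an ornithine decarboxylase antizyme of spermatids, had 2409 FPKM in testis (SD 223, n = 3). Smcp had 1598 FPKM (SD 439), Odf1 1451 FPKM (SD 107) and Akap4 1133 FPKM (SD 45.7).

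**Figure D5:**
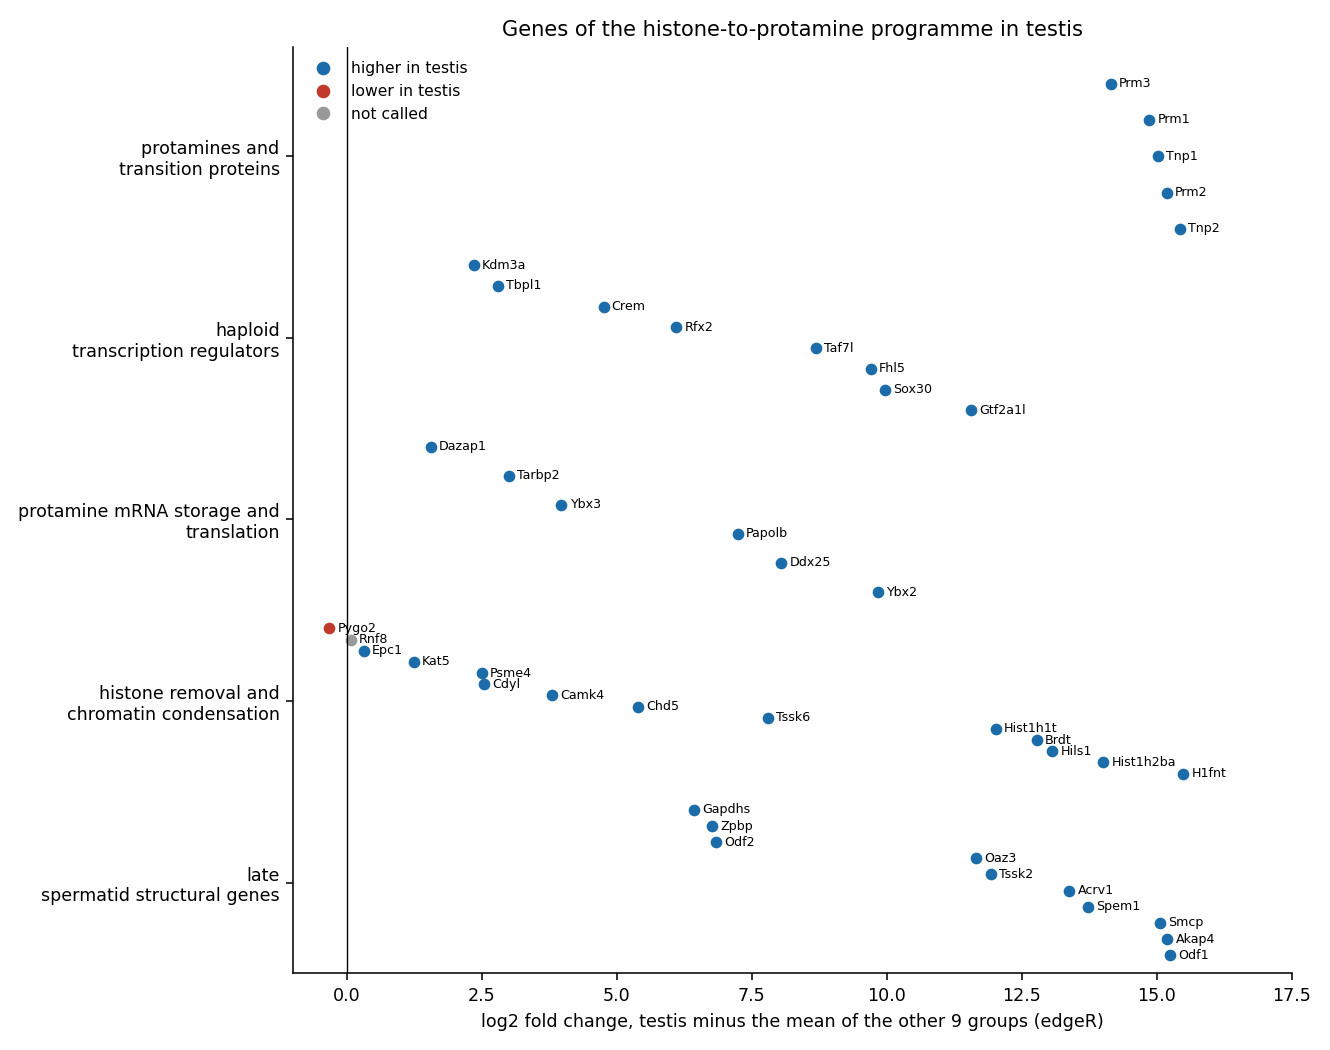
Log2 fold change of each gene in testis against the average of the 9 remaining groups by edgeR, with the 5 members in the top row and the 4 lists under it. Members lie between 14.15 and 15.43, the regulators between 2.35 and 11.56, and Pygo2 is the single gene called lower.

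The genes whose pattern was most like Prm1 were ranked by Pearson's r of log2(FPKM + 0.1) over the 29 libraries, among 6625 genes with a mean of at least 10 FPKM in testis. They were Smcp (r = 0.989), Ldhc, the lactate dehydrogenase of germ cells (0.988), Akap4 (0.985), Tnp2 (0.985) and Spert (0.985). For Prm2, Tnp1 and Prm3 r was 0.979, 0.971 and 0.949. The value is set mostly by the gap between testis and the rest, and 309 genes had an r over 0.95.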

How the data were processed

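RNA was measured in 29 libraries. The authors deposited whole-number read counts per gene, without normalization, and these counts were used as deposited. Their processing notes name FastQC 0.11.8, MultiQC 0.9, HISAT2 2.0.5, featureCounts 1.6.3 and build mm10, and reads that mapped to one place alone were kept, per the paper's methods. Genes were those of an Iso-seq annotation joined with ENSEMBL. Whether counting used the strand is not stated there. Columns of other samples numbered 0.

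The members and lists were chosen with earlier results of these data known. Groups came from the labels. CPM was scaled to the total count, FPKM to the union of exons. Differences were tested with edgeR 4.0.16 (R 4.3.3): quasi-likelihood, TMM, filter by group, 1 mean per group over all libraries, Benjamini-Hochberg over the genes tested and a call at an adjusted p under 0.05. SE is the size of the log2 fold change divided by the root of F. DESeq2 1.42.0 served as an alternative. On simulated counts for testis against the other groups (25983 genes, 200 changed), 100% of 4-fold and 83% of 2-fold changes were recovered, with 4.19% false calls; for testis against ovary these were 98%, 48% and 4.58%, and between the sexes 100%, 99% and 3.86%. In that simulation the changed genes were drawn above a minimum count, and every gene had the same mean CPM in all groups before the change. The dispersion was fixed at 0.05. These rates therefore do not apply to counts as low as the member traces outside testis. Permutation, tau and intervals used Python 3.11.15 with scipy 1.17.1.

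The floor of 3 counts is a one-sided 95% limit, whereas the exact Poisson intervals are two-sided. Named genes were the 5 members; the 4 highest genes in testis FPKM of each list and those not called higher; genes above the highest member; the 5 most like Prm1; neighbours; and markers. Socs1, Crem and colon reads of Akap4, Smcp, Odf1, Acrv1, Spem1, other spermatid genes and Cyp17a1 were described after values were seen. Promoter windows came from RefSeq, and all 5 members matched. Total counts per library, 11742417 to 36194255, put the floor of 3 counts between 0.0829 and 0.255 CPM.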

Additional observations from a re-analysis of the deposited data

How the results depend on the processing

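Testis against the other groups and against ovary called all 5 members under every alternative: size factors, no filter on low counts, DESeq2, leaving out each of the 29 libraries, and leaving out 3 colon libraries. Over these, 32.9% to 42.5% and 25.9% to 40.2% of all genes tested were called higher. The sex comparison and the interaction called 0 members throughout, where 0.0603% to 1.26% and 0% to 0.681% of all genes tested were called, respectively. Among the 9 groups other than testis, 4 members were called under nearly all of these. Over all alternatives, 55.4% to 81.6% of all genes tested were called among these groups. Without female colon replicate 3, Tnp1 was lost (adjusted p = 0.0616 by edgeR). Leaving out the 3 colon libraries gave 0 members, a loss that was built in, as these libraries were chosen for their member counts.

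Replicate numbers gave no sign of pairing: deviations of same-numbered libraries had a median correlation of -0.002 over 126 pairs, and 5 were over 0.1. Whether such libraries share an animal is not stated, and these correlations cannot exclude it. With the replicate block, 5 members were called in testis against the other groups, 5 against ovary, 0 between the sexes, 0 for the interaction and 4 among the 9 groups, as without it, where 40.3%, 37.4%, 0.0903%, 0.00334% and 78.5% of all genes tested were called, in that order (the first 2 in the higher direction).

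Over all genes, DESeq2 called 260 genes between the sexes (edgeR 31) and 147 for the interaction (edgeR 5). The lists kept their counts of genes called higher, except that 11 of the 14 histone removal genes were called without the filter on low counts, where Epc1 was lost (adjusted p = 0.352). Pygo2 was lost with DESeq2 (adjusted p = 0.103).

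Over protein-coding counts alone the members' share was 1.37%. With the longest transcript as length, log2 ratios were 0.78 (Prm2 over Prm1), -0.47 (Tnp1 over Prm1), -0.77 (Tnp2 over Prm1) and -4.26 (Prm3 over Prm1). Without length they were 1.17 (Prm2 over Prm1), -0.57 (Tnp1 over Prm1), -4.45 (Prm3 over Prm1), 0.027 (Tnp2 over Tnp1, from -0.30) and -5.62 (Prm3 over Prm2). Tau on log2(FPKM + 1) was 0.959 for Prm1, 0.946 for Prm2, 0.998 for Prm3, 0.968 for Tnp1 and 0.966 for Tnp2, and over 10 groups 0.999897 for Tnp1. Mean traces as a percent of testis, scaled by TMM, were 0.0105 for Prm1 (from 0.0131), 0.01002 for Prm2 (from 0.0125), 0.00480 for Prm3 (from 0.00563), 0.00858 for Tnp1 (from 0.0107) and 0.0129 for Tnp2 (from 0.0164).

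Depth limits the traces: at a floor of 3 counts, a library with 0 counts is not shown to lack the gene. The 3 reads of Prm3 outside testis were too few to rank groups.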
